A study of Mus musculus with 16 samples.

Results

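Globins and red cell precursor genes were followed across 16 livers of mouse offspring whose mothers had inhaled UV-Titan or clean air during pregnancy. The set held 9 genes, chosen by a list of names with earlier results of these data known: the globins Hba-a1, Hba-x and Hbb-bh1, and the red cell precursor genes Alas2, Ermap, Ank1, Gata1, Nfe2 and Trim10. They were 9 of the 19363 genes tested, carried by 15 probes in 24 spots, and each gene was read from the probe that was brightest in liver on average. All 9 passed the filter on dim probes.

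The mothers were time-mated C57BL/6BomTac mice, and UV-Titan is a surface-coated titanium dioxide made of nanoparticles. From gestation day 8 to day 18, exposed dams breathed about 42 mg/m3 of it in daily sessions of 1 hour, and control dams breathed filtered clean air. The offspring formed 4 groups: 3 female controls, 5 UV-Titan females, 4 male controls and 4 UV-Titan males, with 1 two-colour array for each animal. The labels mention newborns of postnatal day 2 and weanlings of postnatal days 23 to 24 but do not say which a given liver was, nor which animals were littermates, so p-values measure the spread between these animals only.

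Red cells arise in waves. The first, from the yolk sac, makes embryonic globins such as zeta (Hba-x) and the beta-like Hbb-bh1 and Hbb-y. Later red cells, formed in the fetal liver and then in the bone marrow, make the adult alpha (Hba-a1) and adult beta globins. The mouse liver forms blood before birth and for a short time after it. Maturing precursors need GATA1 to switch on red cell genes and ALAS2 to start haem synthesis.

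The adult globin probe was among the bright ones of the array, while the embryonic globin probes lay close to background. The Hba-a1 probe gave a mean liver signal, as scanned, of 192000 to 345000 over the 16 arrays, against a mean local background of 87.8. The Hba-x probe gave 95.2 to 127 against a local background of 86.0, and the Hbb-bh1 probe 112 to 211 against 83.9. By the scanner's own mark, Hba-x stood well above background on 9 of 16 arrays in liver and on 0 of 16 in the reference. Hbb-bh1 did so on all 16 arrays in liver and on 4 of 16 in the reference. Signals of different probes are not on a common scale, so each is read against its own background only.

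These readings rest on the following 60-base probes, printed because the near-identical globin copies can share them. For Hba-a1 the first probe was the one used. Its 60 bases cover chr11:32235785-32235966 on the plus strand of build mm7, a stretch of 182 bases, and the second covers chr11:32235937-32235996. The pair share 30 bases of position, of which 27 are identical and 3, in capitals, differ.
Hba-a1, first probe: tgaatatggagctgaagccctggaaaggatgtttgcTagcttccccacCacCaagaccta
Hba-a1, second probe: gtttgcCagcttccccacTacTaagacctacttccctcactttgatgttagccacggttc
The adult alpha gene has a near-identical neighbour, Hba-a2, so the Hba-a1 signal may hold RNA of both.

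The Hba-x probe lies at chr11:32229678-32229737 (plus strand, mm7). The Hbb-bh1 probes lie on the minus strand of chromosome 7 at chr7:99898179-99898238 (used) and chr7:99898199-99898258, and share the 40 bases in capitals. Hbb-y, another embryonic beta-like globin that is no member, was read at chr7:99909287-99909346 (minus strand).
Hba-x: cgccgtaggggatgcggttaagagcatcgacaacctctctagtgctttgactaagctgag
Hbb-bh1, used: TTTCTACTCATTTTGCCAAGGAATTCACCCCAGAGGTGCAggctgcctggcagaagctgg
Hbb-bh1, other: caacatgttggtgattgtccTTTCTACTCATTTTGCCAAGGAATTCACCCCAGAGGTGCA
Hbb-y: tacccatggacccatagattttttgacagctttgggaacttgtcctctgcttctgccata

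Outside the set, the other globin probes split the same way. The adult beta gene Hbb-bt, listed on the array under an older name, gave 368000 to 477000, and Hbb-y gave 145 to 244.

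**Figure D1:**
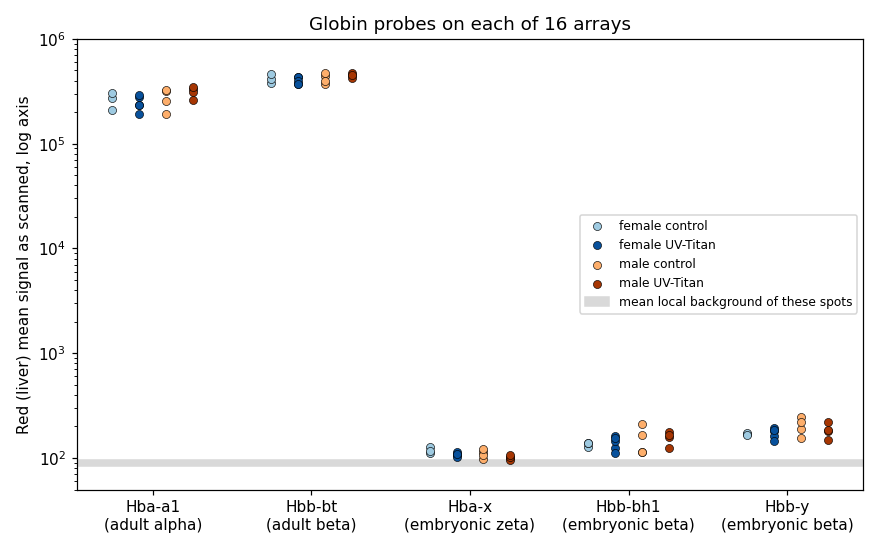
Mean red (liver) signal as scanned, on a log axis, for 3 embryonic and 2 adult globin probes on each of 16 arrays. Each point is 1 animal, colours mark the 4 groups and the grey band spans the mean local background of these spots. Hba-x sits at 95.2 to 127 and Hba-a1 at 192000 to 345000 in every group.

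Facts of the arrays bear on all that follows. The share of spots that liver RNA lit well above background ran from 57.7% to 67.1% per array, and 0 spots were saturated. The lowest share was that of control female 35, 1 of 3 female controls, and the next lowest was 61.5%. In the fit with array weights this animal also had the lowest weight, 0.42. Red was read as the liver channel and green as a universal mouse reference RNA, which the labels give as common to all arrays. The dye fields and the labelling protocol disagree on this, and hepatocyte markers were brighter in red on all 16 arrays. The fetal liver marker Afp was bright on every array, at 415000 to 489000. Male controls 31 and 33 carried exocrine pancreas transcripts (mean of that list 2.90 and 1.83 log2 above its 16-array mean), and UV-Titan male 5 carried skeletal muscle transcripts (2.64 above), so male values are also given without these 3 animals. Values are given as the log2 ratio of liver to reference and as the log2 level of the liver channel alone. The log2 level of the reference channel is given where the pair differ.

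Adult alpha globin had liver-to-reference ratios that lay higher in UV-Titan than in control females, without passing the test, and liver-channel levels that overlapped. The log2 ratio of Hba-a1 was 3.46, 3.31 and 3.31 in female controls 35, 40 and 25. In UV-Titan females 2, 8, 21, 10 and 16 it was 4.23, 4.25, 3.97, 3.71 and 3.47. All 5 UV-Titan females lay above all 3 controls, the lowest of them by little. The difference was 0.57 ± 0.23 (SE), or 1.48-fold, with a limma adjusted p of 0.699. The liver-channel levels of the controls were 17.69, 17.86 and 18.28 and those of the UV-Titan females 18.19, 17.62, 18.19, 17.71 and 17.92. There the groups overlapped fully and the difference was -0.02 ± 0.19. The reference channel of the same arrays read 13.59, 13.87 and 14.19 for the controls and 13.41, 12.90, 13.44, 13.40 and 13.80 for UV-Titan, a difference of -0.50 ± 0.28. Whether the reference channel had a part in the ratio was not tested beyond these values.

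In females no member passed the test. Of the 9 genes 0 were called, as were 0 of all 19363 genes (0%) at an adjusted p of 0.05. At an unadjusted p below 0.05 in limma there were 5 of 9 members and 1296 genes in all (6.69%) on the ratio scale, against 0 of 9 and 598 genes (3.09%) in the liver channel. The ratio lay above 0 for 8 of 9 members, beside 58.5% of all genes, and the median difference was 0.22 beside 0.02 over all genes. In the liver channel 5 of 9 lay above 0, beside 49.7% of all genes, with a median of 0.04. That count was 8 of 9, with a median of 0.28, when the arrays were centred on their median in place of quantile normalisation, and to 8 of 9, with a median of 0.12, with the slide as a block. In the reference channel 8 of 9 members lay below 0. In bulk liver, a different number of precursor cells and a different amount of RNA per cell cannot be told apart.

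Groups did not overlap for 3 of 9 members in females on the ratio scale, all with UV-Titan higher, beside 3.17% of all genes in that direction and 1.05% in the other. These were Hba-a1, Ermap and Gata1. On the liver channel 0 of 9 members were without overlap, beside 1.04% of genes higher and 1.28% lower.

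Ermap encodes a red cell membrane protein that carries the Scianna blood group. Its log2 ratio was 4.1, 3.99 and 4.05 in the controls and 4.50, 4.63, 4.56, 4.50 and 4.12 in UV-Titan females, in the order of animals above. Animal 16 stood just over the highest control and the other 4 clearly above. The difference was 0.41 ± 0.14 (adjusted p = 0.655), and in the liver channel 0.08 ± 0.21.

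Gata1, the transcription factor that red cell and platelet precursors share, was read from 10 spots of 1 probe. Its ratio was 2.27, 2.13 and 2.15 in the controls and 2.41, 2.52, 2.35, 2.34 and 2.35 in UV-Titan females. The groups stood apart narrowly, and the difference was 0.21 ± 0.07 (adjusted p = 0.663). Its liver-channel level was 9.87, 9.91 and 10.33 in the controls and 10.20, 9.94, 10.18, 10.13 and 9.92 in UV-Titan females. These overlapped, with a difference of 0.04 ± 0.16.

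Alas2, the first and rate-limiting enzyme of haem synthesis in red cell precursors, had ratios of 3.83, 3.75 and 3.55 in female controls. UV-Titan females had 4.27, 4.53, 4.12, 4.12 and 3.76. Animal 16 fell inside the control range and the other 4 lay above it. The difference was 0.45 ± 0.19 (adjusted p = 0.713). Its liver-channel level read 13.99, 14.72 and 14.73 in the controls and 15.08, 14.53, 15.09, 14.81 and 14.14 in UV-Titan females, a difference of 0.25 ± 0.26. Of the 9 members Alas2 had the largest liver-channel difference in females, and it was smaller than its standard error.

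The remaining members of the precursor program had overlapping groups in females. Nfe2 encodes the large subunit of NF-E2, a factor that acts at the beta globin locus and in platelet formation, and its ratio difference in females was 0.27 ± 0.12. Ank1, the ankyrin that ties the spectrin skeleton to the red cell membrane, gave 0.22 ± 0.12. Trim10, a RING finger protein of late red cell differentiation, gave 0.13 ± 0.12. The same 3 gave 0.12 ± 0.19, -0.00 ± 0.20 and -0.09 ± 0.31 in the liver channel, so each was smaller than its standard error.

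The embryonic globins did not differ with exposure beyond the spread between females. The liver-channel level of Hba-x was 6.75, 6.54 and 6.75 in the controls and 6.61, 6.65, 6.35, 6.34 and 6.50 in UV-Titan females. The groups overlapped, and 2 of 3 controls and 3 of 5 UV-Titan animals were well above background. The difference was -0.19 ± 0.10 for this level and -0.03 ± 0.07 for the ratio. Hbb-bh1 read 6.91, 6.82 and 6.92 in the controls and 7.35, 6.90, 6.95, 7.04 and 6.61 in UV-Titan females. Animal 2 was the highest and animal 16 the lowest, with the controls between them, and the difference was 0.09 ± 0.21.

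**Figure D2:**
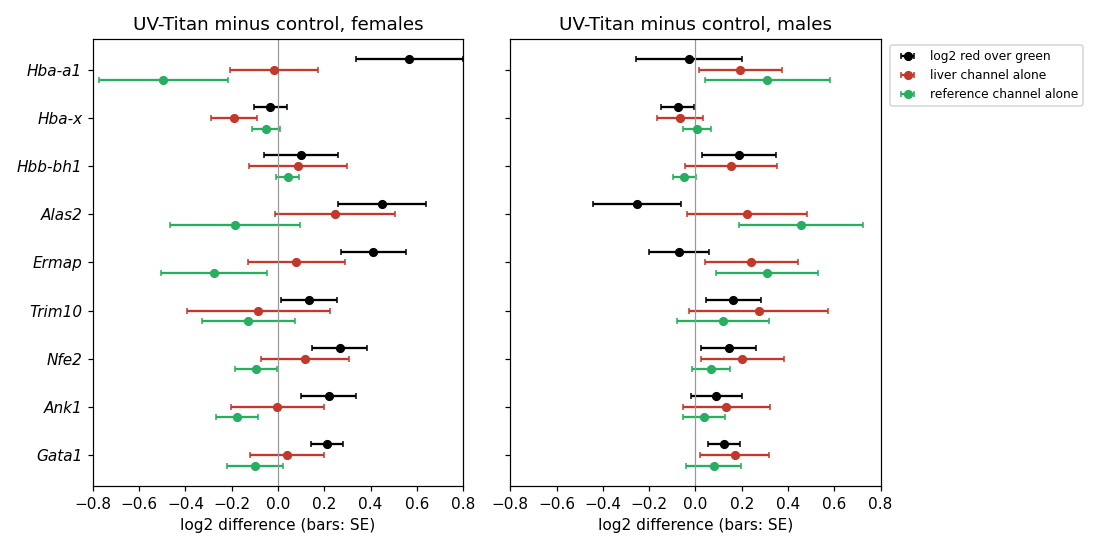
Difference between UV-Titan and control animals (log2, bars show the standard error) for each of the 9 genes in females (left, 3 controls and 5 UV-Titan) and males (right, 4 and 4). Black is the liver-to-reference ratio, red the liver channel alone and green the reference channel alone. For Hba-a1 in females the ratio lies at 0.57, the liver channel at -0.02 and the reference at -0.50.

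In males the ratios of the same genes did not point one way. Hba-a1 had ratios of 4.2, 4.27, 3.70 and 3.88 in male controls 41, 31, 43 and 33 and of 4.18, 4.52, 4.02 and 3.22 in UV-Titan males 4, 5, 3 and 17. Animal 17 had the lowest ratio of all 16 while its liver signal, 18.38, was the second highest. Its reference signal of 14.63 was the highest of all. The ratio difference was -0.03 ± 0.23 and the liver-channel difference 0.19 ± 0.18. For Alas2 the male controls had ratios of 4.15, 4.49, 4.06 and 4.55 and the UV-Titan males 4.07, 4.46, 4.23 and 3.47. The groups overlapped, and the difference of -0.25 ± 0.19 stood against 0.22 ± 0.26 in the liver channel. Ermap gave -0.07 ± 0.13 as a ratio and 0.24 ± 0.20 in the liver channel.

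No member was called in males either, beside 0 of 19363 genes (0%). At an unadjusted p below 0.05 there were 0 of 9 members on either scale, beside 957 genes (4.94%) for the ratio and 627 genes (3.24%) for the liver channel. Ratios lay above 0 for 5 of 9 members, beside 56.5% of all genes, with a median of 0.09. With median centring in place of loess that was 2 of 9, with a median of -0.06. In the liver channel 8 of 9 lay above 0, beside 50.3% of all genes, with a median of 0.19, and 8 of 9 did so too with median centring. The exception was Hba-x, at -0.07 ± 0.10. Groups overlapped for all 9 members on both scales, where 1.92% of genes stood higher and 1.09% lower without overlap on the ratio scale, and 0.873% and 0.857% in the liver channel.

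The median male differences were smaller without the 3 animals with foreign transcripts. The median liver-channel difference was then 0.07, with a range of -0.04 to 0.18, and 8 of 9 members stayed above 0. The ratio median without these 3 animals was 0.03. Left in were control males 41 and 43 and UV-Titan males 4, 3 and 17. The mean liver-channel deviation of the members was 0.45 in control 41, the highest of all 16 arrays, and -0.25 in control 43. Trim10 had the largest liver-channel difference in males, at 0.27 ± 0.30 with all animals.

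Gata1 in males read 10.55, 9.87, 9.93 and 10.10 in control livers and 10.40, 10.40, 9.95 and 10.39 in UV-Titan livers. Its 4 UV-Titan values lay within the range of the controls, and the difference was 0.17 ± 0.15. Hbb-bh1 read 7.66, 6.65, 6.59 and 7.16 in male controls and 7.41, 7.19, 6.78 and 7.29 in UV-Titan males. Control 41 was the highest of all 16 animals for Hbb-bh1, and the difference was 0.15 ± 0.20. Hba-x was well above background in 3 of 4 control and 1 of 4 UV-Titan males.

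Averaged over both sexes, 8 of 9 members had ratios above 0, beside 60.4% of all genes, with a median of 0.15, and 0 were called. At an unadjusted p below 0.05 there were 2 of 9 members, beside 1363 genes (7.04%). Liver-channel values lay above 0 for 8 of 9, beside 49.6% of all genes, with a median of 0.10, and 0 of 9 passed unadjusted, beside 570 genes (2.94%).

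The female and the male effect were set against each other by the interaction in the same model. On the ratio scale they differed by 0.70 ± 0.27 for Alas2 (unadjusted p = 0.0188) and by 0.49 ± 0.19 for Ermap (unadjusted p = 0.0214), with an adjusted p of 0.98 for both. Unadjusted, 2 of 9 members and 824 genes (4.26%) passed 0.05, and 0 genes passed after adjustment. The liver channel gave 0.02 ± 0.37 and -0.16 ± 0.29 for the same interactions, with 0 of 9 members beside 548 genes (2.83%) below an unadjusted 0.05. The reference channel gave -0.64 ± 0.39 and -0.58 ± 0.32. For both genes the reference channel carried a value of the opposite sign to the ratio.

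Control males had higher ratios than control females for 8 of 9 members, with a median difference of 0.30 beside 0.00433 over all genes. Ermap differed by 0.51 ± 0.14, Hba-a1 by 0.66 ± 0.24 and Alas2 by 0.60 ± 0.20, each with an adjusted p of 0.699. No member was among the 6 genes (0.0310%) called between the sexes on the ratio scale or the 7 (0.0362%) in the liver channel. Unadjusted, 5 of 9 members passed 0.05 on the ratio scale, beside 1300 genes (6.71%), and 0 of 9 in the liver channel, beside 889 (4.59%). For the liver channel the 3 differences were 0.19 ± 0.22, 0.05 ± 0.19 and 0.42 ± 0.28. In the reference channel they were -0.28 ± 0.24, -0.485 ± 0.29 and -0.136 ± 0.29, and the part of that channel was not tested. Pancreas transcripts in male controls 31 and 33 move with this comparison, and their part in it was not tested.

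The balance of embryonic over adult globin was compared between exposed and control animals as the difference of log2 liver-channel values within an animal. Zeta globin over adult alpha globin differed by -0.18 in females (exact two-sided permutation p = 0.446), by -0.26 in males (exact permutation p = 0.171) and by -0.22 over both sexes (exact permutation p = 0.125). The female value was -0.02 without control female 35, -0.08 without UV-Titan female 21, and -0.31 without control female 25 and -0.29 without UV-Titan female 8. On the ratio scale the balance was -0.60 for females, -0.05 for males and -0.33 for the sexes together. With median centring of the liver channel it was -0.57 in females and -0.40 over both. The female ratio value was thus mostly that of Hba-a1, since Hba-x alone differed by -0.03 and Hba-a1 by 0.57. In the liver channel Hba-x and Hba-a1 alone differed by -0.19 and -0.02 in females and by -0.07 and 0.19 in males. Hbb-bh1 over Hba-a1 differed by 0.10, -0.04 and 0.03, with exact permutation p of 0.643, 0.714 and 0.796, and on the ratio scale these 3 had the opposite signs. Adjusted over the 6 comparisons, p ran from 0.514 to 0.796. The smallest p the design allows is 0.0179 in females and 0.0286 in males, and it is lower over both, with 3920 relabellings. Hba-x lay below the scanner's mark in 7 of 16 livers, among them control female 35, whose signal as scanned, 127, was the highest. With all 16 livers close to the local background, a lower zeta level could hardly be detected.

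Slides are a batch, and 6 pairs of a control and a UV-Titan animal of a sex shared a slide. In females the 9 liver-channel differences had a median of 0.14 on slide 2 (6 of 9 above 0), 0.50 on slide 4 (8 of 9) and -0.38 on slide 5 (0 of 9). In males the medians were 0.09 on slide 1 (8 of 9 above 0), 0.53 on slide 3 (8 of 9) and -0.15 on slide 4 (1 of 9). The members thus mostly went up together in some pairs of animals and down together in others, in both sexes. On slide 4 they mostly went up in the female pair and down in the male pair. On the ratio scale the counts above 0 were 8, 9 and 6 of 9 in females and 8, 8 and 2 of 9 in males. With the slide as a block over all 16 arrays, the female ratio differences were 0.44 ± 0.13 for Hba-a1, 0.33 ± 0.10 for Ermap and 0.20 ± 0.06 for Gata1, with adjusted p of 0.357, 0.326 and 0.341. Each within-slide difference, unlike the values with the slide as a block, compares 1 animal with 1 other, so it has no error of its own.

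**Figure D3:**
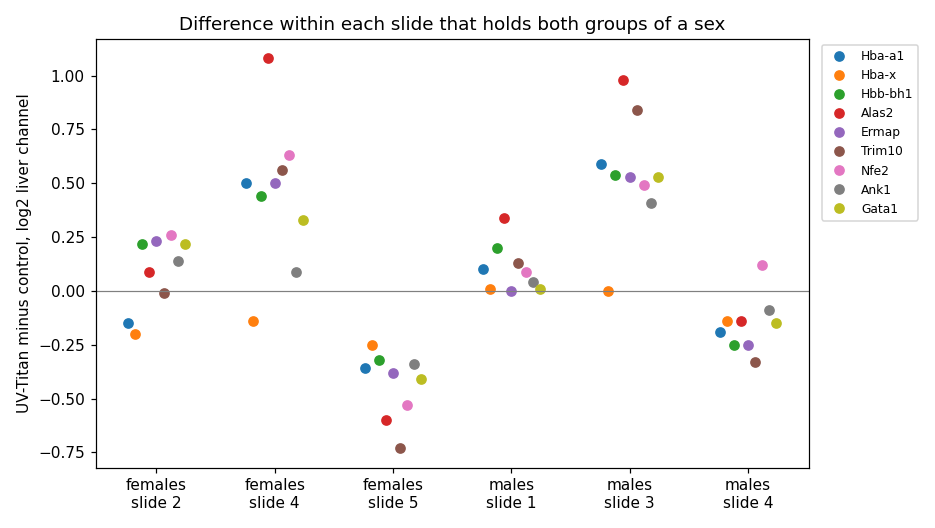
Liver-channel difference (log2) between the UV-Titan and the control animal of a sex on each slide that held both, with 1 point per gene. On slide 5 all 9 genes in females lie below 0, and on slide 4 in females 8 of 9 lie above 0.

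Across the arrays 8 of the 9 genes moved together in the liver channel, and these except Hbb-bh1 largely did so in the reference channel. Over the 16 arrays, the 28 pairs among Hba-a1, Hbb-bh1, Alas2, Ermap, Trim10, Nfe2, Ank1 and Gata1 had Pearson correlations of the liver channel between 0.64 and 0.95, with a median of 0.84. With the group means taken out they lay between 0.60 and 0.96, and with median centring in place of quantile normalisation between 0.47 and 0.96. In the reference channel, whose RNA was the same on every array, the same pairs lay between -0.10 and 0.95, with a median of 0.76 (0.75 with the group means taken out). The pairs of Hbb-bh1 lay there between -0.10 and 0.28. Its reference signal was well above background on only 4 of 16 arrays. On the ratio scale they lay between 0.08 and 0.94, with a median of 0.66, and between -0.09 and 0.91, with a median of 0.48, with the group means taken out. How much of the shared movement belongs to the livers and how much to the arrays was not tested. The typical gene of the array had a median correlation with a member between -0.05 and 0.02. Hba-x stood outside, with liver-channel correlations of -0.22 to 0.17 with the other members. With the group means taken out these were 0.02 to 0.47, the highest with Hbb-bh1. The points share their arrays, so these values are a description and carry no test.

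Liver-channel readings accordingly lay high or low for the set as a whole on a given array. In 8 livers 7 to 9 of the 9 genes lay above their own 16-animal median, and in the other 8 livers 0 to 2 did. Control male 41 and UV-Titan male 17 had all 9 above, and UV-Titan female 16 and control male 43 had 0. The high livers were 1 of 3 female controls, 2 of 5 UV-Titan females, 2 of 4 male controls and 3 of 4 UV-Titan males. Every group therefore held both kinds of reading.

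**Figure D4:**
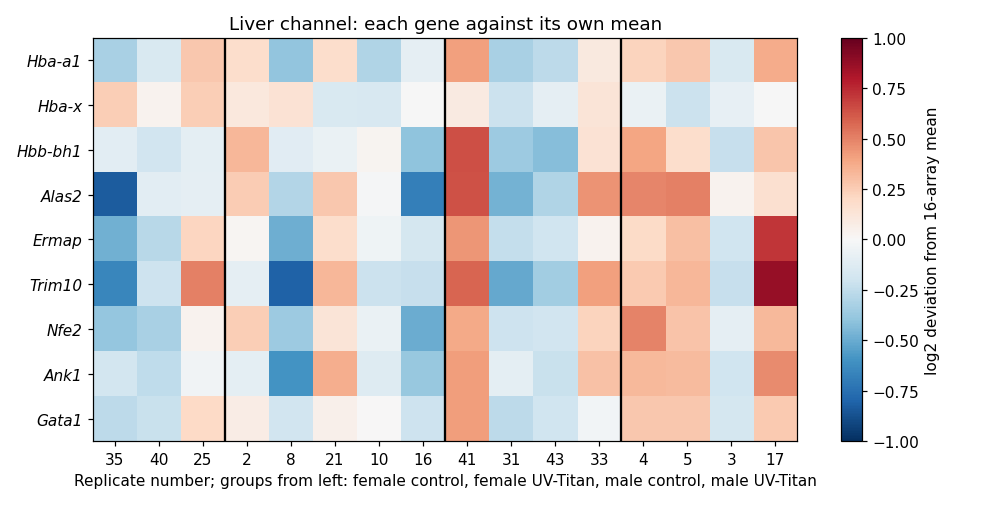
Liver-channel level of each of the 9 genes in each of 16 animals, as the log2 deviation from the gene's own 16-array mean (red above, blue below). Columns run through female controls, UV-Titan females, male controls and UV-Titan males, divided by black lines. Most columns are of a single colour from Hba-a1 to Gata1 apart from the Hba-x row, as in male control 41 and UV-Titan male 17.

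The spread between animals of a group was wide for most members. The residual standard deviation in the liver channel was 0.49 for Trim10, more than for 98.7% of genes, 0.41 for Alas2 (97.5%) and 0.32 for Ermap (92.9%). It was 0.28 for Hba-a1, 0.23 for Gata1 and 0.13 for Hba-x (28.9%), beside a median of 0.17 over all genes. On the ratio scale the spread of Gata1 fell to 0.09, below the all-gene median of 0.13, and that of Trim10 to 0.18. Hba-a1 went the other way, to 0.36, more than for 98.0% of genes.

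The reference channel moved with the liver channel for several members, although the reference RNA was the same on all arrays. Over 16 arrays the correlation of the channels was 0.90 for Trim10 (Spearman 0.90, and 0.87 without the 2 farthest arrays), 0.85 for Gata1 and 0.83 for Ank1. For Hba-a1 it was 0.57, and the median over all genes was 0.61. The reference reading of Hba-a1 ranged over 1.76 log2 units and its liver reading over 0.80, and the 3 highest reference readings were those of UV-Titan male 17, control female 25 and control female 40.

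Genes whose liver-channel pattern was most like that of a member were found by Pearson correlation over the 16 arrays. For Hba-a1 they were Sptb, red cell beta spectrin (0.945), Slc25a37, a mitochondrial iron carrier (0.942), Rbm38 (0.938), a second array entry for beta spectrin under its older name Spnb1 (0.935) and 1 transcript without a symbol (0.934). For Alas2 they were Eif2ak1, the haem-regulated kinase (0.956), Tmcc2 (0.955), Fhdc1 (0.952), Ehbp1l1 (0.95) and the theta globin Hbq1a (0.948). For Hbb-bh1 they were Rab3il1 (0.967), Emilin2 (0.898), Zfp341 (0.897), Cntn6 (0.895) and Olfr1495 (0.884). Cntn6 was well above background on only 10 of 16 arrays.

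The stretches just before their starts were read for motifs that red cell factors bind. Promoter sequences from RefSeq (GRCm38.p6) were at hand for 6 of the 9 genes, and the 250 bases before each start were searched on both strands. The GATA motif was taken as GATA with an A or T before it and an A or G after it, and is in capitals below, where a match on the other strand reads as its reverse complement. It was found in 5 of 6, and in 26.5% of 32536 promoter stretches of the same length. Shown are the adult and embryonic alpha-type globins, which share a chromosome, and the haem and membrane genes, each 5′ to 3′ on the gene's strand. They lie at chr11:32283422-32283671 (plus strand), chr11:32276350-32276599 (plus), chrX:150547167-150547416 (plus) and chr4:119189996-119190245 (minus).
Hba-a1: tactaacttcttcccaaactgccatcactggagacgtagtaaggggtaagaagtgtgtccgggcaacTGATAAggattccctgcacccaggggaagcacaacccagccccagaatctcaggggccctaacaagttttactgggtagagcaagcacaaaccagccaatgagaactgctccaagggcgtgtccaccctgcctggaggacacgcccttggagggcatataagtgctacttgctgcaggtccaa
Hba-x: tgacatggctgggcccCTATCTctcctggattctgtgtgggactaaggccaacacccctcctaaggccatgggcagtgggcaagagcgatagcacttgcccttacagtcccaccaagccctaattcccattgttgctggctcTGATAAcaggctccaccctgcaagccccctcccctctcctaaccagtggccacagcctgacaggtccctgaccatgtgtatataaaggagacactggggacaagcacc
Alas2: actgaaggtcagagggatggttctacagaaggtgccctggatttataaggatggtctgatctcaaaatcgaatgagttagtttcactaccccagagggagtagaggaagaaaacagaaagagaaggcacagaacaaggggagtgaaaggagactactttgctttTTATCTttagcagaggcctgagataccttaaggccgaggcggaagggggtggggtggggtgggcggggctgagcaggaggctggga
Ermap: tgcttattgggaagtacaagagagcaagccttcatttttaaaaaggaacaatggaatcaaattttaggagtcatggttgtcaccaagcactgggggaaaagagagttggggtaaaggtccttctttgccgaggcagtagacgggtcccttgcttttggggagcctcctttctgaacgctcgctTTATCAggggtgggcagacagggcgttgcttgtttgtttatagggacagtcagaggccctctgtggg

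The GATA match began 183 bases before the start in Hba-a1, 86 in Alas2, 67 in Ermap and 163 in Trim10, and Hba-x had 2, at 234 and 108. No match lay in the Gata1 stretch. The CACCC motif, which KLF1 is known to bind, was in 6 of 6 and in 52.1% of all stretches. CCAAT, in 33.8% of stretches, was found in Hba-a1, Ermap and Trim10, and TATAA, in 22.7%, in the 5 other than Gata1. A match describes letters only, and no binding was measured here.

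The wider red cell program was described through 6 lists of 80 genes, of which 73 were measured, the 9 members among them. In females 60 of 73 had ratios above 0 and 13 below, with a median of 0.12, and 0 were called. In the liver channel 35 lay above and 38 below, with a median of -0.00. Of all genes, 58.5% and 49.7% lay above 0 there. In males 52 of 73 ratios lay above 0, with a median of 0.12, beside 56.5% of all genes. In the male liver channel 60 of 73 did, with a median of 0.15, beside 50.3%. The same shares of all genes stand beside the counts of each list below. At an unadjusted p below 0.05, 12 of 73 genes passed on the female ratio scale and 1 in the liver channel, beside 6.69% and 3.09% of all genes. The 5 members that passed on the female ratio scale were among the 12.

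Among 8 measured globin genes, which include the alpha globin chaperone Ahsp, the 2 smallest p in females belonged to Hba-a1 and the adult beta globin Hbb-bt. Hbb-bt had a ratio difference of 0.72 ± 0.30 (adjusted p = 0.699) and a liver-channel difference of -0.01 ± 0.11. Ahsp gave 0.43 ± 0.19 and -0.06 ± 0.24. In males the 2 smallest p were those of the theta globins, Hbq1b at 0.24 ± 0.15 and Hbq1a at 0.20 ± 0.15.

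Of 14 genes of haem synthesis and iron uptake, 7 ratios lay above 0 in females and 13 in males. Abcb10, a mitochondrial transporter of the haem pathway, gave 0.20 ± 0.11 in females and 0.25 ± 0.11 in males. Slc25a38, a mitochondrial glycine carrier, gave 0.21 ± 0.10 in males. The transferrin receptor Tfrc, which takes up iron, gave -0.03 ± 0.22 in females and 0.24 ± 0.22 in males.

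In the list of 18 membrane and skeleton genes, 14 ratios lay above 0 in each sex, while in the liver channel 5 did in females and 16 in males. The complement regulator Cd59a gave 0.17 ± 0.07 in females. Sptb gave 0.28 ± 0.14 in males. All 12 transcription factors had ratios above 0 in females, and 8 did in the liver channel. Sox6 gave 0.27 ± 0.11 and the red cell factor Klf1 0.26 ± 0.13 in females, with liver-channel values of 0.10 ± 0.19 and -0.12 ± 0.18. In males the smallest p were those of Lyl1, 0.26 ± 0.11, and Tal1, 0.26 ± 0.13, both factors of early blood cells.

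Signalling by the erythropoietin receptor had 8 measured genes, with 7 ratios above 0 in females and 3 in males. The survival factor Bcl2l1 gave 0.24 ± 0.11 in females and 0.27 ± 0.11 in males, and the receptor Epor 0.18 ± 0.09 and -0.02 ± 0.09. The kinase Jak2 gave -0.13 ± 0.08 in males. Of 13 genes of late maturation, all 13 ratios lay above 0 in females and 11 in males, with Tspo2 at 0.23 ± 0.08 and Tspan33 at 0.26 ± 0.11 in females. Mkrn1 gave 0.24 ± 0.16 and Xpo7 0.27 ± 0.19 in males.

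**Figure D5:**
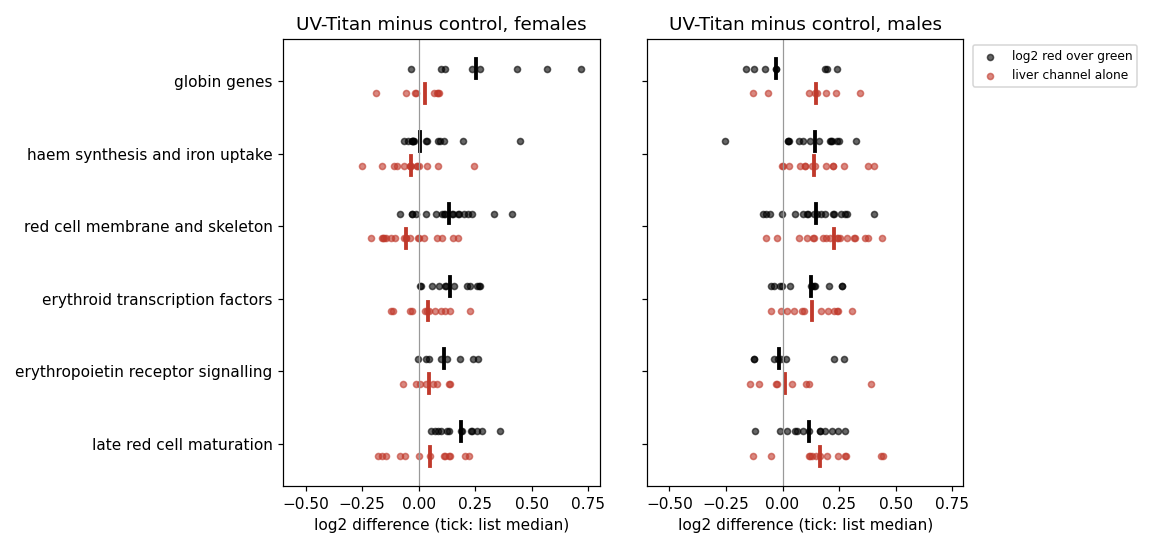
Difference between UV-Titan and control animals (log2) for each measured gene of 6 red cell lists in females (left) and males (right). Black points are liver-to-reference ratios, red points the liver channel alone, and ticks the list medians. In females the black medians lie above 0 for each list, that of haem synthesis at 0.01, and the red medians fall on both sides of 0.

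Megakaryocyte markers moved with the female comparison, and as a list they did not overlap between the groups. Granulocyte markers lay higher in UV-Titan females too, but their list overlapped between the groups, as did those of several other cells. All 12 megakaryocyte and platelet genes, from a lineage that shares Gata1 and Nfe2 with red cells, had higher values in UV-Titan females on both scales. Their median was 0.54 as a ratio and 0.48 in the liver channel. At an unadjusted p below 0.05 in limma there were 12 of 12, and 0 were called. Of all genes, 6.69% passed unadjusted for the ratio and 3.09% in the liver channel. The list was chosen with earlier results of these data known. The mean liver-channel deviation of that list ran from -0.33 to -0.29 in female controls and from -0.06 to 0.24 in UV-Titan females. All 12 were well above background, so none of its markers was at 0. Of 14 granulocyte genes, 14 lay above 0 in females, with medians of 0.49 and 0.38, and the list ran from -0.52 to -0.01 in controls and from -0.21 to 0.27 in UV-Titan females. The mast cell list ran from -0.18 to 0.11 in female controls and from -0.33 to 0.10 in UV-Titan females. For the macrophage list these ranges were -0.04 to 0.13 and -0.11 to 0.31. For the fetal liver list they were -0.13 to 0.05 and -0.09 to 0.22. The part of the megakaryocyte and granulocyte lineages in the Gata1 and Nfe2 values was not tested.

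Hepatocyte genes showed the same split between scales as Hba-a1. In females 11 of 11 had ratios above 0, with a median of 0.55, while the liver channel gave 6 of 11 and a median of 0.03 and the reference channel a median of -0.48. In males 2 of 11 ratios lay above 0, with a median of -0.22, beside 8 of 11 and a median of 0.09 for liver alone and a median of 0.31 for the reference.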

How the data were processed

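Liver RNA of 16 offspring was hybridised to two-colour Agilent arrays against a universal mouse reference. The spot intensity and local background intensity values were deposited as scanned with Feature Extraction 9.5.3.1, per the labels and the file headers. A table of log2 values that the authors deposited served as an alternative only, and its normalisation is not given in the sources used here. Of its columns, 0 belonged to other samples.

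In limma 3.58.1 (R 4.3.3) both channels were background-corrected (normexp, offset 50) and ratios were normalised by loess within arrays, with control and outlier spots at weight 0. Channels alone were quantile-normalised between arrays. Repeat spots of a probe were averaged. Genes entered the test if liver signal of any probe passed the scanner's background mark on 3 or more arrays, and the brightest probe stood for the gene. One model with 4 group means was fitted to 19363 genes, with two-sided tests and Benjamini-Hochberg adjustment over all of them at 0.05. The model was tested on simulated data.

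The members and lists were chosen with earlier results of these data known. The text names the 9 members, the 2 genes with the smallest ratio p per list and sex, Hbb-y, Hbb-bt, Ahsp, Klf1, Epor and Tfrc, and the 5 genes most like Hba-a1, Alas2 and Hbb-bh1. One gene that this rule names is not reported here. Names were updated through RefSeq for 12356 genes.

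Alternatives were other background corrections, centring, no dim-probe filter, slide or scan day as a block, array weights, the authors' table, other probes and leaving out each array. The liver channel without 3 animals and the pair correlations on other scales were added after seeing the data.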

Additional observations from a re-analysis of the deposited data

Results flagged for a closer look

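Values of each gene within a group of 4 or 5 animals were screened for an animal far from the others by Dixon's test, over 54 groups of values on the ratio and liver-channel scales, and 2 stood out. Chance alone flags about 1 group in 20. The first was the Ermap ratio of UV-Titan female 16, at 4.12 against 4.50 to 4.63 in the other 4 UV-Titan females. Without this animal the Ermap ratio difference in females was 0.50 in place of 0.41. The second was the liver-channel level of Gata1 in UV-Titan male 3, at 9.95 against 10.39 to 10.40 in the other 3. Without this animal the Gata1 difference in males was 0.28 in place of 0.17.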

How the results depend on the processing

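Of 552 member values under alternatives other than leaving out an array, 505 kept their sign and 47 turned, and 0 were called. With the scanner software's processed signals, Hbb-bh1 turned to -0.256 in females and Trim10 to -0.02 in males and 0.231 for the interaction. Reading the liver channel in place of the ratio turned Hba-a1, Trim10 and Ank1 in females (-0.016, -0.085 and -0.003) and Hba-a1, Alas2 and Ermap in males (0.194, 0.222 and 0.241). It turned the interactions of Hba-a1, Hba-x, Ermap, Nfe2, Ank1 and Gata1 (-0.21, -0.125, -0.162, -0.087, -0.137 and -0.131). Median centring of the ratio turned Nfe2, Ank1 and Gata1 in males (-0.01, -0.064 and -0.021) and the interactions of Hba-x (-0.059) and Trim10 (0.425). For the ratio, the slide block turned Hba-x in females (0.00303), Hba-a1 in males (0.052) and the Trim10 interaction (0.00147), the scan day block Hba-a1 in males (0.066), and array weights the same value (0.065). The authors' table turned Hba-x in females (0.00606) and the Trim10 interaction (0.037). Without the 3 animals with pancreas or muscle transcripts, the interactions of Hbb-bh1 (0.042) and Trim10 (0.108) turned on the ratio scale, and of Hbb-bh1 (0.05) and Gata1 (0.038) in the liver channel. Median centring of the liver channel turned Hba-a1, Trim10 and Ank1 in females (0.312, 0.189 and 0.256) and the interactions of Hba-a1, Ermap, Nfe2, Ank1 and Gata1 (0.119, 0.17, 0.244, 0.183 and 0.141). The slide block turned the liver-channel values of Hba-a1, Trim10 and Ank1 in females (0.084, 0.114 and 0.088) and the interactions of Hbb-bh1 (0.042) and Ermap (0.035). Other Ank1 probes gave 0.00843 in females (liver channel), -0.043 in males (ratio) and -0.0022 over both sexes (liver channel). The globin balance of Hbb-bh1 over Hba-a1 turned to -0.471, 0.215 and -0.128 in females, males and both on the ratio scale, and to -0.257 in females and -0.148 over both with median centring. The cause of these turns was not tested.

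The count of genes called over the whole array, 0 in each exposure comparison, was 1 in females with the slide block, 1 with the scan day block and 6 with array weights. It was 1 in males with the processed signals, and over both sexes 1 without background correction, 1 with the slide block, 10 with the scan day block and 6 with array weights. Leaving out 1 array moved it from 0 to 1 in females (1 without UV-Titan female 21 or control male 43) and from 0 to 11 over both sexes (11 without control male 43, 3 without control female 35, 1 without UV-Titan female 21 or 16). No member was among these genes.

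Leaving out each array in turn turned the sign of 43 of 1152 member values. On the ratio scale the lowest and highest values were -0.059 and 0.00436 for Hba-x in females, -0.207 and 0.228 for Hba-a1 and -0.209 and 0.055 for Ermap in males, and, for the interactions, -0.00688 and 0.099 for Hba-x, -0.267 and 0.015 for Hbb-bh1 and -0.138 and 0.036 for Trim10. In the liver channel of females they were -0.141 and 0.151 for Hba-a1, -0.00768 and 0.177 for Hbb-bh1, -0.069 and 0.275 for Ermap, -0.348 and 0.225 for Trim10, -0.136 and 0.105 for Ank1 and -0.043 and 0.184 for Gata1. Over both sexes they were -0.037 and 0.25 for Trim10 and -0.000964 and 0.136 for Ank1. The liver-channel interactions ran from -0.282 to 0.077 for Hbb-bh1, -0.221 to 0.206 for Alas2, -0.313 to 0.033 for Ermap, -0.205 to 0.043 for Nfe2 and -0.277 to 0.015 for Gata1. The balance of Hbb-bh1 over Hba-a1 ran from -0.045 to 0.238 in females, -0.107 to 0.031 in males and -0.043 to 0.098 over both. No paired analysis by replicate number was possible because the groups share no replicate numbers in the labels; animals on a common slide were compared through the slide block and within slides. Signal over background limits Hba-x, which was below the scanner's mark on 7 of 16 livers.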
